A study of Mus musculus with 31 samples.

Results

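Nt5e, Sbk1, Tlcd2, Trim7, Sned1, Abhd6, Ank3, Slc22a15, Tfdp2 and Dsg1c were described as 10 liver genes that differed between mouse pups given thyroxine (T4) and pups given vehicle when neither type 1 nor type 2 deiodinase was present. They are 10 of 43629 genes in the deposited count table. All 10 passed the filter on low counts, which kept 17057 genes. They were chosen by the measured difference between T4 and vehicle livers, the first 6 as higher and the last 4 as lower after T4. Their differences in any comparison that uses those libraries are therefore descriptions with no test. By p in that comparison they held places 2 (Sbk1) to 65 (Dsg1c) among the 70 genes that passed. Just inside the threshold lay Fads2 (log2 fold change 0.34, adjusted p = 0.0474, edgeR) and just outside it Nol9 (0.49, adjusted p = 0.0517).

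Liver RNA of 31 C57Bl/6J pups was sequenced at postnatal day 14, after injections every other day from postnatal day 2. All pups lacked Dio1 and Dio2 (Dio1KO/Dio2KO). Pups that also lacked Pax8 (Dio1KO/Dio2KO/Pax8KO), without which the thyroid does not develop its follicles, received T4 (8 livers), triiodothyronine (T3, 6 livers), both hormones (T3+T4, 7 livers) or vehicle (5 livers, called vehicle). Pups heterozygous for Pax8 (Dio1KO/Dio2KO/Pax8Het) kept a thyroid and received vehicle (5 livers, called control). Control pups thus share the loss of both deiodinases with every other group, and no group with intact deiodinases was compared. Each library carries its own animal number in the labels, and hormone doses are not given there.

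T4 is the main product of the thyroid, and T3 is the hormone form that binds its nuclear receptors most tightly. The deiodinases of types 1 and 2 remove an iodine from T4 to make T3, and Dio1 itself is a gene that T3 induces in liver. Thyroid hormone receptors bind copies of the letters AGGTCA, commonly as a direct repeat with a spacer of 4 bases, and can raise or lower transcription of nearby genes.

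Library totals ran from 4383769 to 7158919 counts, and the 10 genes had 22 to 1682 counts in any library, so counting error was largest for Trim7, Sned1 and Dsg1c. The lowest value in every column was 1. Animal numbers from 54 to 85 covered 5 of 8 T4, 6 of 6 T3, 7 of 7 T3+T4, 2 of 5 vehicle and 1 of 5 control libraries. The 8 hepatocyte markers were all measured, with a summed level of 5460 to 6800 CPM (counts scaled to a library of 1000000) after T4, 5130 to 6330 after T3, 4640 to 6330 after T3+T4, 6660 to 7280 in vehicle and 5930 to 6650 in control livers. Pancreatic acinar or skeletal muscle markers averaged at least 5 CPM in 3 T4, 2 T3, 4 T3+T4, 2 vehicle and 1 control libraries. Their part in the results was not tested beyond the values without these libraries given below. Summed acinar markers had a median of 3.26 CPM after T4 (highest 12.1) and 14.6 in vehicle (highest 204). Of 6 tested acinar markers, 1 was lower in T4 and 5 in T3 than in vehicle livers (edgeR, adjusted p under 0.05). Over all genes 0.41% and 6.77% differed. The sex given in the labels differed from the sex genes in 4 of 20 libraries. By those genes, females made up 2 of 8 T4, 5 of 6 T3, 2 of 7 T3+T4, 2 of 5 vehicle and 4 of 5 control libraries. Pax8 had at most 28 counts in a library and gave no check of the genotype labels. Reads of Dio1 were present in all groups, with 82 to 369 counts after T4, 311 to 1260 after T3, 690 to 1504 after T3+T4, 42 to 91 in vehicle and 776 to 1035 in control livers, and the deleted part of the gene is not given in the sources used here.

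Nt5e and Trim7 carried the letters GGGCGG, a motif bound by SP family factors, in their promoter windows, and Tfdp2 was the only gene with a copy of AGGTCA. The 3 windows below are shown because they hold these matches. They are RefSeq windows of build GRCm38.p6, from 250 bases before to 50 bases after a gene start, written 5′ to 3′ along the gene, with matches to either motif on either strand in capitals. The Nt5e window is chr9:88327359-88327658, the Trim7 window chr11:48837221-48837520 and the Tfdp2 window chr9:96258455-96258754, all on the plus strand. All 3 lie inside the gene spans given below, so their starts are not the first bases of those spans. Trim7 and Tfdp2 each have another window, which holds no match to either motif.
Nt5e: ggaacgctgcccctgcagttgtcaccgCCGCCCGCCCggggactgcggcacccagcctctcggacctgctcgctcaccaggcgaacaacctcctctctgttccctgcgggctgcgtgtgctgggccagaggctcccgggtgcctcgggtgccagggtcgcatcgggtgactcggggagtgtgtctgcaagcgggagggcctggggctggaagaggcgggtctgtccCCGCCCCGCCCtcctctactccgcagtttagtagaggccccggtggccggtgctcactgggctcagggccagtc
Trim7: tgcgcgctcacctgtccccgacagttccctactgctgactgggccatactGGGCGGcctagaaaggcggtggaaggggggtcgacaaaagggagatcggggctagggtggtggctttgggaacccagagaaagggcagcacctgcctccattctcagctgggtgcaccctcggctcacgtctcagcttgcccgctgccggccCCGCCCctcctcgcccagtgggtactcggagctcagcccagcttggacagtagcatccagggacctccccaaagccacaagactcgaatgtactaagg
Tfdp2: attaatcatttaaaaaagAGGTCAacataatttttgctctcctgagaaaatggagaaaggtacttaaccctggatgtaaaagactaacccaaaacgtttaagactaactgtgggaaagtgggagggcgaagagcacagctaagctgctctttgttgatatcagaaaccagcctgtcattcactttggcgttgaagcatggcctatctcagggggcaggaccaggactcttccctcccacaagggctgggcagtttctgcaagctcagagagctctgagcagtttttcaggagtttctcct

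RefSeq windows were matched for 7 of the 10 genes, with 10 windows in all, and none was matched for Sbk1, Ank3 or Dsg1c. AGGTCA on either strand lay in 1 of the 10 windows, against 16.3% of all 32851 windows. That match lay 232 bases before the start of the Tfdp2 window shown, which is inside the gene span. A direct repeat of AGGTCA with a spacer of any 4 bases lay in 0 of the 10 and in 5 of all windows. GGGCGG lay in 6 of the 10 windows, those of Nt5e, Trim7, Sned1, Slc22a15 and both windows of Abhd6, against 35.7% of all windows. The 2 windows of Abhd6 overlap and share 1 match, and in Nt5e some matches overlap each other. TATAAA lay in 0 of the 10 windows and in 13.6% of all. A match here is a match of letters only.

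Nt5e (ENSMUSG00000032420, mm10 chromosome 9, 88327197 to 88372092) encodes CD73, the surface enzyme that makes adenosine from AMP. After T4 the level of Nt5e was 114 CPM at the lowest, 151 at the median and 198 at the highest library, against 72.8, 77.9, 88.1, 92.7 and 93.5 CPM in the 5 vehicle libraries. Every T4 library lay above every vehicle library, and the log2 fold change of T4 over vehicle was 0.82 ± 0.11 (SE). Of 17057 genes, 0.41% differed in this comparison at an adjusted p under 0.05 with edgeR's quasi-likelihood test, the rule from which the 10 genes were drawn. In bulk liver RNA, a change in the number of cells that express a gene and a change in RNA per cell cannot be told apart.

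The mean levels of Nt5e after T3 and after T3+T4 lay above that after T4. Its lowest, median and highest libraries had 161, 213 and 244 CPM after T3. They had 181, 218 and 233 CPM after T3+T4, against 231, 237, 238, 244 and 268 CPM in the control libraries. No T4 library reached the lowest control library, while the T3 and T3+T4 libraries overlapped with control. The T4 mean of Nt5e lay 40.8% of the way along the gap between the vehicle mean and the control mean, and the T3 and T3+T4 means lay at 77.9% and 79.7%.

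Abhd6 (ENSMUSG00000025277, chromosome 14, 8002902 to 8056763) encodes a lipase that splits monoacylglycerols, among them the endocannabinoid 2-arachidonoylglycerol. Its libraries ran from 33.5 over a median of 41.5 to 52.1 CPM after T4, against 25.2, 25.9, 27.4, 27.5 and 30.6 CPM in vehicle. The groups did not overlap, and the log2 fold change was 0.64 ± 0.12 (SE). T3 libraries of Abhd6 had 41.1 to 77.2 CPM with a median of 65.2, and T3+T4 libraries had 58.7 to 77.5 CPM with a median of 65.6. Control libraries had 49.7, 52.9, 56.4, 60.1 and 60.8 CPM, so the means after T3 and T3+T4 lay beyond control, at 122% and 141% of the gap, and the T4 mean lay at 52.8%.

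Sbk1 (ENSMUSG00000042978, chromosome 7, 126272619 to 126295016) encodes a serine/threonine kinase with an SH3-binding domain. T4 libraries held 103, 116 and 126 CPM of Sbk1 at their lowest, median and highest, against 51.0, 56.2, 58.4, 60.0 and 79.7 CPM in vehicle, with a log2 fold change of 0.90 ± 0.11 (SE). The T4 libraries were close together for Sbk1, with an SD of 7.78 CPM around a mean of 114 CPM, and all lay above the highest vehicle library, that of animal 67. The levels after T3 (101 to 171 CPM, median 125) and T3+T4 (116 to 166 CPM, median 141) overlapped with T4 and with control (126, 132, 143, 148 and 163 CPM). Means after T4, T3 and T3+T4 lay at 65.5%, 82.9% and 100.3% of the gap from vehicle to control.

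Tlcd2 (ENSMUSG00000038217, chromosome 11, 75461715 to 75470899) encodes a membrane protein with a TLC domain, a fold it shares with ceramide synthases. The lowest, median and highest T4 libraries had 83.3, 97.9 and 162 CPM of Tlcd2, against 26.9, 34.5, 36.5, 47.3 and 69.8 CPM in vehicle. T4 animal 40 stood apart at the top of its group and vehicle animal 67 at the top of the vehicle group, yet the groups did not overlap. The log2 fold change was 1.27 ± 0.18 (SE). It was 1.52 without vehicle animal 67 and 0.73 when only animals 54 to 85 were used, a range that holds 2 vehicle libraries, animal 67 being 1 of them.

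The order of the Tlcd2 means was T3+T4, control, T3, T4 and vehicle. T3 libraries had 126 to 190.2 CPM with a median of 149, and T3+T4 libraries 170.2 to 239.6 CPM with a median of 192, against 152, 187, 191, 199 and 209 CPM in control. The T3+T4 and control means of Tlcd2 differed by less than the larger of their SDs. Per kilobase of exon, the mean level of Tlcd2 was 53.8 CPM per kb after T4, the highest of the 10 genes in that group, and 22.2 CPM per kb in vehicle, where Dsg1c was at 23.3. Mir22hg on the same strand shares 10.6% of the exonic bases of Tlcd2, and reads from those bases could belong to either.

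Trim7 (ENSMUSG00000040350, chromosome 11, 48826140 to 48852209) encodes an E3 ubiquitin ligase that binds glycogenin, the primer of glycogen. T4 libraries ran from 12.8 over 16.8 to 26.7 CPM for Trim7, against 4.01, 5.05, 5.54, 7.21 and 10.3 CPM in vehicle. The groups did not overlap, and the log2 fold change was 1.41 ± 0.24 (SE), with 1.65 without vehicle animal 67 and 0.92 among animals 54 to 85. Trim7 had 21.1 to 36.1 CPM after T3 (median 21.96) and 22.3 to 53.6 CPM after T3+T4 (median 41.5), against 29.6, 31.6, 35.2, 37.2 and 47.4 CPM in control. The T4 mean of Trim7 lay at 36.0% of the gap to control, the T3 mean at 61.1% and the T3+T4 mean at 112%.

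Sned1 (ENSMUSG00000047793, chromosome 1, 93235841 to 93301065) encodes a secreted glycoprotein of the extracellular matrix with a nidogen domain. Its T4 libraries had 16.5, 25.6 and 45.6 CPM at the lowest, median and highest, against 7.43, 7.84, 11.3, 12.8 and 15.7 CPM in vehicle. The lowest T4 library was just above the highest vehicle library, and the log2 fold change was 1.26 ± 0.26 (SE). Sned1 reached 36.9 to 73.5 CPM after T3 (median 54.2) and 44.2 to 98.5 CPM after T3+T4 (median 56.7), against 57.2, 61.9, 66.7, 76.2 and 82.5 CPM in control. The T4 mean of Sned1 closed 26.7% of the gap from vehicle to control, the smallest share of the 10 genes, against 75.4% with T3 and 93.3% with T3+T4. Exons of Mterf4 on the opposite strand cover 19.5% of the exonic bases of Sned1, and the use of strand in counting is not given in the sources used here.

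**Figure D1:**
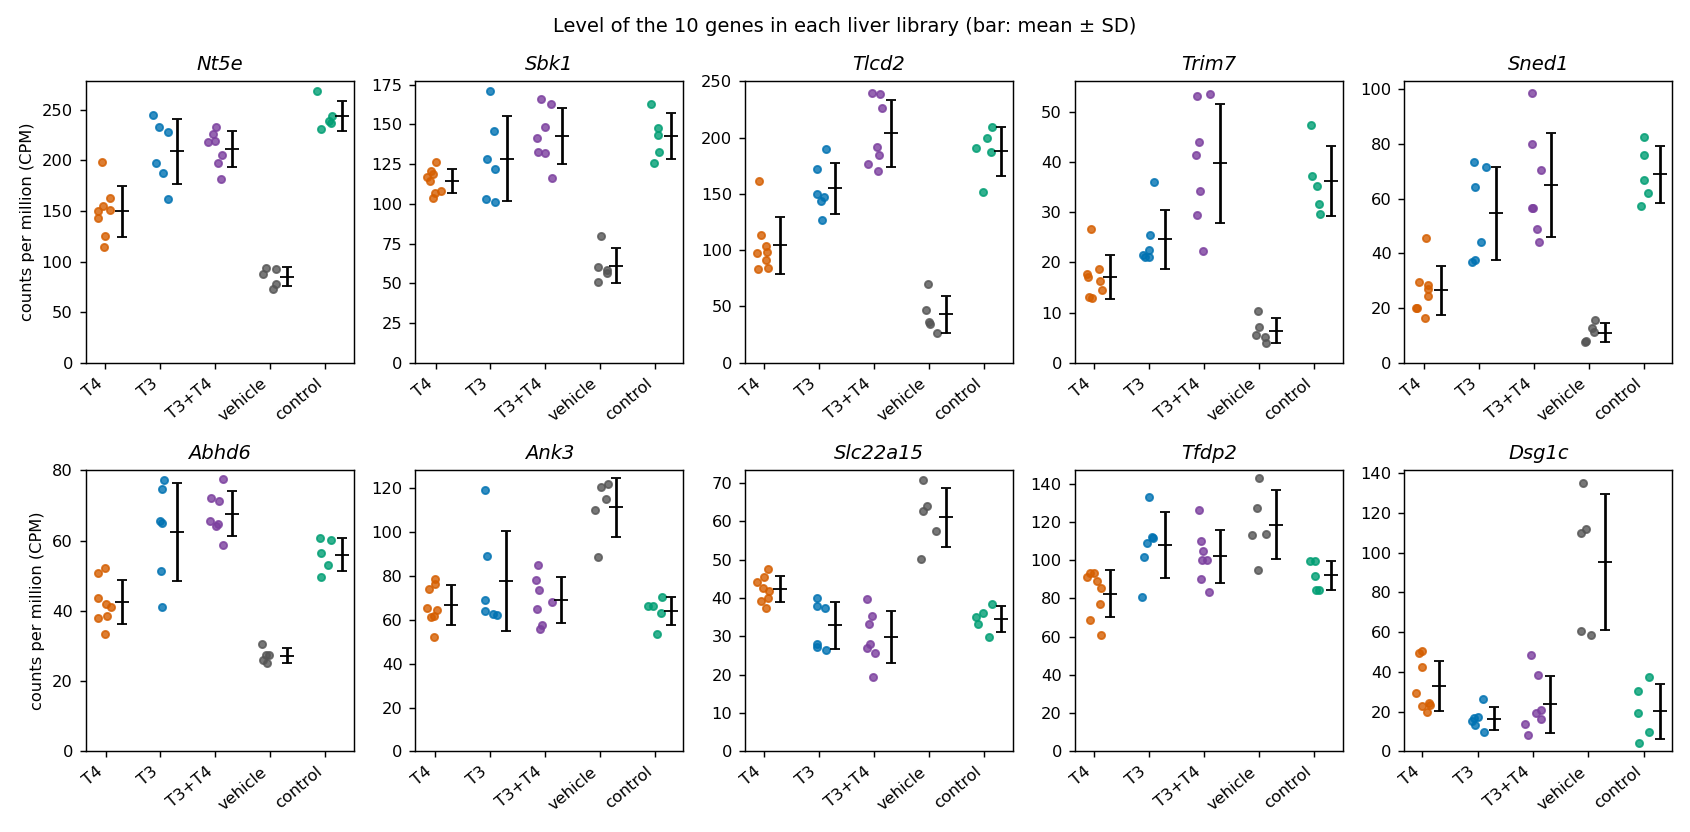
Level of each of the 10 genes in CPM (vertical axes from 0, 1 panel a gene) in every liver library, by group from T4 to control, with the mean and SD beside the points. In the panels of Nt5e, Sbk1, Tlcd2, Trim7, Sned1 and Abhd6 all T4 points lie above all vehicle points, and in those of Ank3, Slc22a15, Tfdp2 and Dsg1c all lie below them. The genes were chosen by this difference, so the separation is a description. The share of all genes separated in this way was not counted.

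Ank3 (ENSMUSG00000069601, chromosome 10, 69398773 to 70027438) encodes ankyrin-G, which ties membrane proteins to the spectrin skeleton. T4 libraries had 52.1, 64.8 and 78.5 CPM of Ank3 at the lowest, median and highest, against 88.4, 109.9, 115, 120.4 and 122 CPM in vehicle. All T4 libraries were lower than all vehicle libraries, with a log2 fold change of -0.73 ± 0.13 (SE). In control livers Ank3 had 53.6, 63.1, 66.2, 66.3 and 70.1 CPM, overlapping with the T4 libraries, and the T4 mean was at 93.9% of the gap. T3 libraries had 61.9 to 119 CPM (median 66.3) and overlapped with vehicle through T3 animal 61, and T3+T4 libraries had 55.7 to 84.8 CPM (median 68.0). The log2 fold change of T3 over vehicle was -0.52 ± 0.14 (SE) with that animal and -0.68 without it.

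Dsg1c (ENSMUSG00000034774, chromosome 18, 20247340 to 20285031) encodes a desmoglein, a cadherin of desmosomes best known from skin. Its T4 libraries ran from 19.8 over 27.0 to 50.3 CPM, against 58.4, 60.4, 109.9, 112 and 135 CPM in vehicle, a log2 fold change of -1.54 ± 0.36 (SE). Vehicle libraries fell into a lower pair and a higher trio, and the lower pair was still above every T4 library. The T3 (9.84 to 26.5 CPM, median 16.2), T3+T4 (8.27 to 48.7 CPM, median 19.1) and control libraries (4.46, 9.68, 19.3, 30.3 and 37.5 CPM) overlapped widely. Dsg1a and Dsg1b, its close paralogs and neighbours, were counted at 1.61 ± 0.65 and 1.64 ± 0.78 CPM after T4 (SD, n = 8), against 4.71 ± 2.12 and 4.40 ± 2.20 CPM in vehicle (n = 5). How reads were split among the 3 paralogs is not known, so each of these values is uncertain.

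Slc22a15 (ENSMUSG00000033147, chromosome 3, 101855776 to 101924453) encodes an organic ion transporter of the SLC22 family. T4 libraries of Slc22a15 held 37.3, 42.2 and 47.5 CPM at the lowest, median and highest, against 50.2, 57.4, 62.7, 64.1 and 70.9 CPM in vehicle. The groups were separate, with a log2 fold change of -0.53 ± 0.12 (SE). After T3 the libraries had 26.6 to 40.0 CPM (median 32.6) and after T3+T4 19.5 to 39.7 CPM (median 28.1), against 29.8, 33.2, 35.1, 36.1 and 38.5 CPM in control. The T4 mean of Slc22a15 lay between the vehicle and control means, at 70.8% of the gap, while T4 and control libraries overlapped, and the T3 and T3+T4 means lay past control, at 106% and 118%.

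Tfdp2 (ENSMUSG00000032411, chromosome 9, 96196275 to 96323646) encodes DP-2, the partner with which E2F factors bind DNA. It had 60.6, 87.3 and 93.4 CPM in the lowest, median and highest T4 libraries, against 95.04, 113, 114, 127 and 143 CPM in vehicle, a log2 fold change of -0.52 ± 0.11 (SE). The highest T4 library was just below the lowest vehicle library. T3 libraries of Tfdp2 had 80.5 to 133 CPM (median 110.0) and T3+T4 libraries 83.5 to 126 CPM (median 100.1), against 84.4, 84.6, 91.8, 99.7 and 99.7 CPM in control. Its T4 mean of 82.4 CPM was the lowest of the 5 group means, at 137% of the gap, and the T3 mean lay at 39.9% and the T3+T4 mean at 61.8%. Neighbouring means in the order vehicle, T3, T3+T4, control and T4 differed by less than the larger of their SDs in each case.

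**Figure D2:**
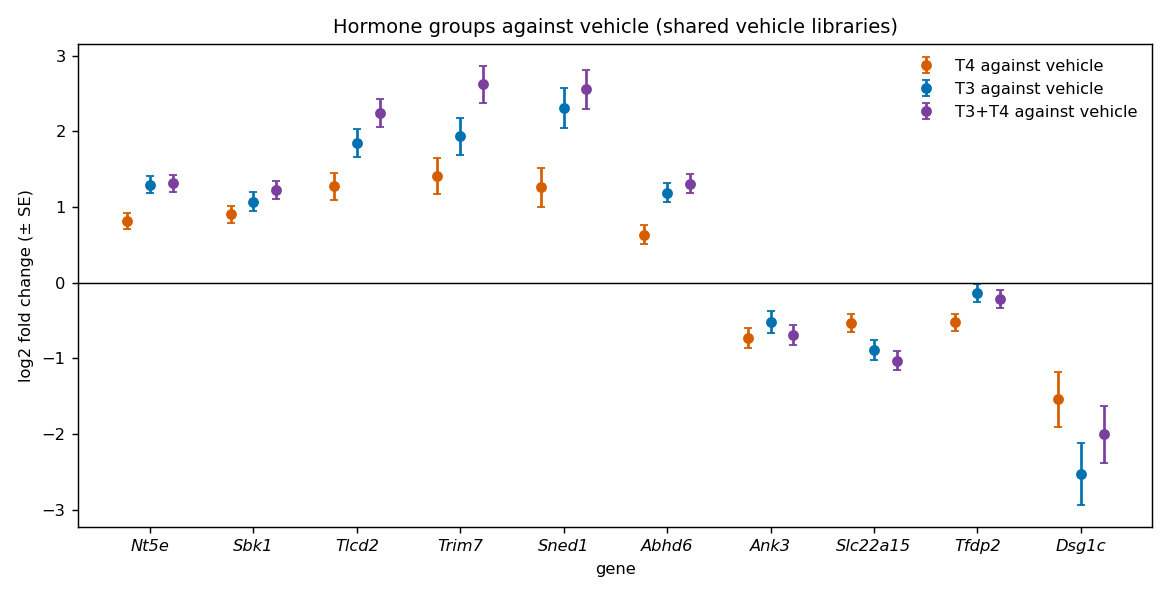
Log2 fold change (vertical axis, ± SE) of each gene in T4, T3 and T3+T4 livers over vehicle livers. The values share the 5 vehicle libraries. Tfdp2 is at -0.52 after T4, -0.13 after T3 and -0.21 after T3+T4, while Sned1 is at 1.26, 2.31 and 2.56.

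Against vehicle, each of the 6 genes chosen as higher after T4 had a larger log2 fold change after T3 and a still larger one after T3+T4, values that share the vehicle libraries. For Nt5e they were nearly equal, at 1.30 after T3 and 1.31 after T3+T4. Without libraries with raised acinar or muscle markers the Nt5e values were 1.35 and 1.34. Of the 8 hepatocyte markers 2 were lower in T3 and 4 in T3+T4 than in vehicle livers, and 0 passed in T4 against vehicle (edgeR), and their part in these values was not tested. The log2 fold changes of the 6 genes ran from 0.64 to 1.41 after T4, from 1.07 to 2.31 after T3 and from 1.22 to 2.62 after T3+T4. Of the 4 genes chosen as lower, Slc22a15 and Dsg1c had log2 fold changes further below 0 after T3 (-0.89 ± 0.13 and -2.53 ± 0.41, SE) than after T4. Those of Ank3 and Tfdp2 lay nearer 0 after T3, and the T3 and T3+T4 libraries of Tfdp2 overlapped with vehicle. The direct difference between T4 and T3 livers was -0.39 ± 0.11 for Tfdp2 and -1.05 ± 0.21 for Sned1 on the log2 scale (SE), given without a test because it uses the T4 libraries. Among animals 54 to 85 the 6 higher genes had log2 fold changes of T4 over vehicle from 0.53 (Abhd6) to 1.11 (Sned1), and the 4 lower genes from -0.61 (Tfdp2) to -1.55 (Dsg1c).

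**Figure D3:**
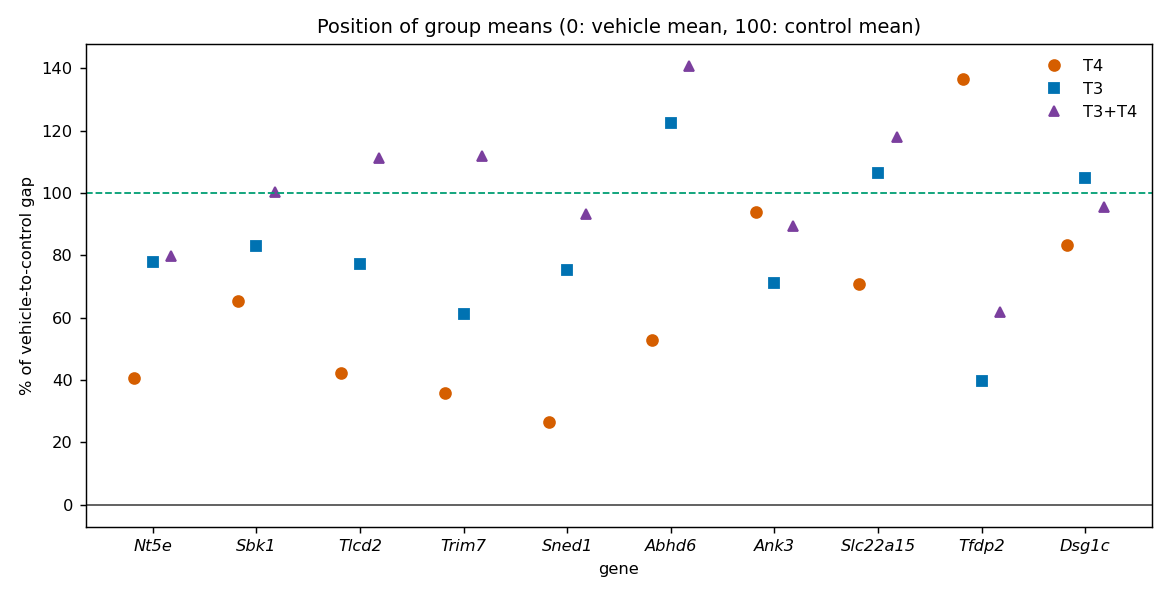
Position of the T4, T3 and T3+T4 group means of each gene as a percentage of the distance from the vehicle mean (0) to the control mean (100, dashed line). T4 lies lowest among the 3 hormone groups for Nt5e, Sbk1, Tlcd2, Trim7, Sned1 and Abhd6, at 26.7% to 65.5%. It is also lowest for Slc22a15 (70.8%) and Dsg1c (83.3%), and highest for Ank3 and Tfdp2, at 93.9% and 137%.

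T3+T4 against T3 uses libraries that had no part in choosing the genes, but it asks what T4 adds once T3 is given. In T3 livers the means already lay at 39.9% (Tfdp2) to 122% (Abhd6) of the gap from vehicle to control. Animal numbers ran from 60 to 68 with T3 and from 72 to 85 with T3+T4. Females were 5 of 6 and 2 of 7. The part of these differences was not tested beyond the values with sex as a term. Trim7 averaged 39.7 ± 11.8 CPM in T3+T4 livers (SD, n = 7) and 24.6 ± 5.86 CPM in T3 livers (n = 6). The log2 fold change was 0.69 ± 0.20 (SE, 95% interval 0.29 to 1.09), which did not pass the test over all genes (adjusted p = 0.136, edgeR quasi-likelihood test, 0.0606 to 0.407 over 42 alternatives). Without the libraries with raised acinar or muscle markers the log2 fold change of Trim7 was 1.13, without T3 animal 60 it was 0.83, and with sex as a term it was 0.59. Tlcd2 averaged 204 ± 29.9 CPM in T3+T4 and 155 ± 22.6 CPM in T3 livers, a log2 fold change of 0.40 ± 0.16 (SE, 95% interval 0.08 to 0.72, adjusted p = 0.304 with edgeR). The libraries of T3+T4 and T3 overlapped for both genes and for the other 8. The share of all genes that overlapped in this way was not counted.

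None of the 10 genes passed in T3+T4 against T3, where 0.0117% of 17057 genes did. At an unadjusted p under 0.05 there were 2, Trim7 and Tlcd2, against 12.7% of all genes, and DESeq2 also called 0 of the 10. The 95% interval of the log2 fold change was -0.18 to 0.22 for Nt5e, -0.07 to 0.37 for Sbk1, -0.11 to 0.34 for Abhd6 and -0.30 to 0.15 for Tfdp2. The interval of Dsg1c ran from -0.26 to 1.32, with a log2 fold change of 0.53 ± 0.39 (SE), 0.19 with sex as a term, 0.26 without T3+T4 animal 72 and 0.96 without the libraries with raised acinar or muscle markers. The sign of the log2 fold change was that of T4 against vehicle for 9 of the 10 genes, all but Dsg1c. The same held for 46 of the 70 genes that passed in T4 against vehicle and for 53.7% of all genes, and these comparisons share no library. The signs of the 10 genes come from the same libraries. Genes chosen in the same direction tended to vary together within groups, so their signs are not independent. The sign of Nt5e was not stable, with 0.02 in the main fit. It was -0.05 without T3 animal 61 and -0.01 without libraries with raised acinar or muscle markers. Ank3 and Tfdp2 were each at -0.01 without T3 animal 61.

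**Figure D4:**
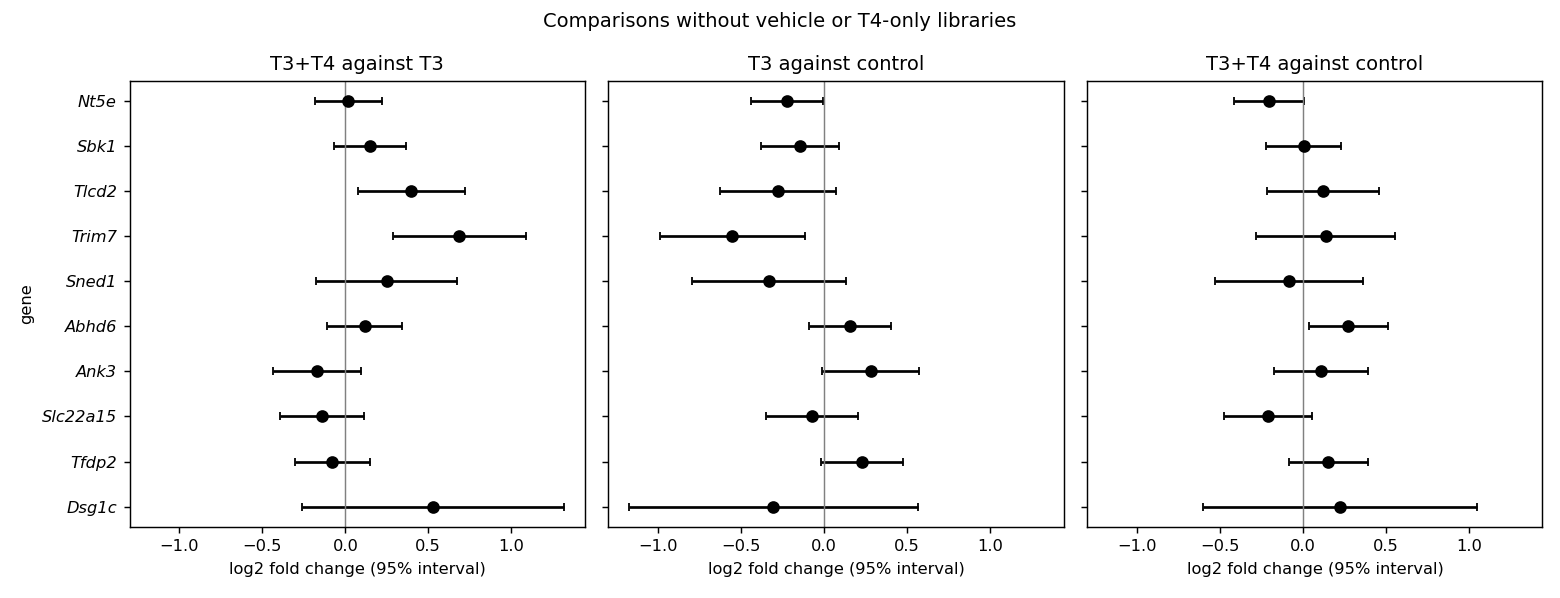
Log2 fold change with its 95% interval (horizontal axis) of each gene in T3+T4 against T3, T3 against control and T3+T4 against control. None of these compares T4-only or vehicle libraries, though the spread was estimated over all groups. The interval leaves out 0 for Trim7 (0.29 to 1.09) and Tlcd2 (0.08 to 0.72) in T3+T4 against T3. It also does for Trim7 (-0.99 to -0.12) and Nt5e (-0.441 to -0.006) in T3 against control. In T3+T4 against control it does for Abhd6 (0.03 to 0.51). None of the values in the 3 comparisons passed after adjustment over all genes.

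In T3 livers against control livers, 0 of the 10 genes passed (edgeR and DESeq2), where 0.211% of all genes did with edgeR, and 2 of the 10 were at an unadjusted p under 0.05 against 17.4% of all. Those 2 were Trim7, with a log2 fold change of -0.55 ± 0.21 (SE, edgeR adjusted p = 0.186), and Nt5e, with -0.22 ± 0.11 (SE, adjusted p = 0.277). Both were lower in T3 livers. In T3+T4 livers against control livers, 0 of the 10 passed with either tool, where 0% of all genes did with edgeR, and 1 was at an unadjusted p under 0.05 against 7.19% of all. It was Abhd6, with 67.7 ± 6.27 CPM in T3+T4 (SD, n = 7) and 56.0 ± 4.71 CPM in control livers (n = 5), a log2 fold change of 0.27 ± 0.12 (SE, edgeR adjusted p = 0.616). For Sbk1 the difference between T3+T4 and control was 0.00 with a 95% interval from -0.23 to 0.23.

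Within groups, the 6 genes higher after T4 tended to be high in the same libraries. Over 31 libraries, Pearson's r between deviations from the group means had a median of 0.37 over their 15 pairs (-0.04 to 0.66), and 13 pairs were above 0. It was 0.12 to 0.54 over the 6 pairs among the 4 lower genes, and had a median of -0.02 over the 24 mixed pairs. These points share the library and its scaling. Vehicle animal 67 was the highest vehicle library for 5 of the 6 higher genes, and vehicle animal 2019 was the lowest vehicle library for 4 of the 4 lower genes. T4 animal 40 was the highest T4 library for Tlcd2, Trim7 and Sned1.

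Similar patterns were sought among 11779 other genes averaging at least 5 CPM, leaving out Gm numbers, Rik clones, other clone names and pseudogenes. Of these, Dio1, Csrp3 and Rfk were the most similar to the 6 higher genes over all 31 libraries. Pearson's r with the mean standardised level of the 6 was 0.93, 0.92 and 0.92. Dio1, the deiodinase gene mutated in all pups, had 34.3 ± 16.7 CPM after T4, 135 ± 53.2 after T3, 187 ± 42.7 after T3+T4, 12.7 ± 4.42 in vehicle and 169 ± 31.8 in control livers (SD). Csrp3 encodes a muscle LIM protein, and Rfk makes the flavin cofactor FMN. Summed skeletal muscle markers ran from 2.64 to 262 CPM after T4, 5.68 to 402 after T3 and 2.71 to 90.6 after T3+T4. In vehicle they ran from 2.42 to 10.8 and in control livers from 2.02 to 3.24 CPM. Of 6 tested, 0 passed in T4 against vehicle, where 0.41% of all genes did. All 6 were higher in T3 than in vehicle livers, where 6.77% of all genes differed. The part of muscle RNA in the likeness to Csrp3 was not tested. For the 4 lower genes the most similar were Myh10, a nonmuscle myosin (0.85), Inpp4a, a phosphoinositide phosphatase (0.82), and Nr5a2, a nuclear receptor of liver (0.81).

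Of the 159 tested genes in the lists around the 10, 5 (3.14%) passed in T4 against vehicle with edgeR, against 0.41% of all genes, and 11 (6.92%) with DESeq2, against 1.38%. An unadjusted p under 0.05 was found for 32 (20.1%), against 12.7% of all genes. The lists were chosen with earlier results of these libraries known, so these shares are a description. Of 12 tested monoacylglycerol and endocannabinoid genes 1 rose, with a list median of 0.01 on the log2 scale against 0.00 over all genes. It was Mgll, the main monoacylglycerol lipase beside Abhd6, with 309.9 ± 42.2 CPM after T4 and 209 ± 45.2 CPM in vehicle (SD), a log2 fold change of 0.57 ± 0.13 (SE, edgeR adjusted p = 0.0455). This call ended in 16 of the 31 fits that left out 1 library (T4 animals 40, 43, 46, 54, 58, 69 and 70, vehicle animals 37, 38 and 55, control animals 42, 49, 50 and 59, T3 animal 64, T3+T4 animal 77). Faah, which breaks down anandamide, and Abhd12, a related lipase, had log2 fold changes of -0.07 ± 0.07 and 0.19 ± 0.07 (SE) and did not pass. Between T3 and vehicle livers Mgll (0.67 ± 0.14) and Abhd12 (0.35 ± 0.07) both rose, 2 of 12 against 6.77% of all genes. Both calls ended with the compared groups only, with animals 54 to 85 only and without the libraries with raised acinar or muscle markers.

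Of 18 tested adenosine and nucleotide genes 0 passed in T4 against vehicle with edgeR or DESeq2, and 1 had an unadjusted p under 0.05. Entpd1, which makes the AMP that Nt5e uses, had a log2 fold change of 0.25 ± 0.13 (SE), and the adenosine-removing enzymes Ada and Adk had 0.17 ± 0.35 and -0.10 ± 0.07. Of 11 tested TLC domain genes 0 passed with either tool, 0 had an unadjusted p under 0.05, and Tlcd1, the nearest relative of Tlcd2 on the list, was at 61.8 ± 16.5 CPM after T4 and 60.1 ± 17.7 CPM in vehicle (SD). Of 12 glycogen genes 0 passed with either tool, and 1 had an unadjusted p under 0.05. Gyg, which encodes glycogenin, the partner of Trim7, had a log2 fold change of 0.06 ± 0.08 (SE), and Gys2, the liver glycogen synthase, had -0.15 ± 0.15. Of 15 matrix glycoprotein genes 0 passed with edgeR and 1 with DESeq2, and 2 had an unadjusted p under 0.05. Nid1, a basement membrane nidogen, had -0.11 ± 0.10. The kinases Sbk2 and Sbk3 did not pass the filter on low counts.

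Around the lower genes, 0 of 13 tested ankyrin and spectrin genes passed in T4 against vehicle with edgeR or DESeq2, and 2 had an unadjusted p under 0.05. Ank1, the ankyrin of red cells, had 3.56 ± 4.17 CPM after T4 and 0.982 ± 0.723 CPM in vehicle (SD), a log2 fold change of 1.86 ± 0.64 (SE, edgeR adjusted p = 0.183). Ank2, another paralog of Ank3, had a log2 fold change of 0.27 ± 0.24 (SE). Of 16 E2F, DP and pocket protein genes 1 rose, with a list median of 0.20 against 0.00 over all genes. It was E2f4, an E2F factor that works mostly as a repressor, with 53.8 ± 6.00 CPM after T4 and 42.7 ± 3.48 CPM in vehicle (SD) and a log2 fold change of 0.33 ± 0.08 (SE, edgeR adjusted p = 0.0455). This call also ended in 16 of the 31 fits that left out 1 library (T4 animals 40, 43, 58, 70 and 71, vehicle animals 37, 38, 55 and 67, control animals 42, 47, 49, 50 and 59, T3 animal 64, T3+T4 animal 77). Tfdp1, the paralog of Tfdp2, had a log2 fold change of 0.22 ± 0.08 (SE) and E2f1, an activating E2F factor, had 0.39 ± 0.33, and neither passed. Of 16 tested SLC22 genes 0 passed with edgeR and 2 with DESeq2, 4 had an unadjusted p under 0.05, and the list median was 0.25. Slc22a5, a carnitine transporter, had a log2 fold change of 0.00 ± 0.20 (SE).

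Of 13 tested desmosome genes 2 fell after T4, the Dsg1c paralogs Dsg1a (log2 fold change -1.53 ± 0.33, SE, edgeR adjusted p = 0.0344) and Dsg1b (-1.42 ± 0.33, adjusted p = 0.0455). The call of Dsg1a ended without T4 animal 43, 58, 70 or 71 or vehicle animal 37, 38 or 55. That of Dsg1b ended in 20 of the 31 such fits (T4 animals 40, 43, 46, 58, 69 and 71, vehicle animals 37, 38 and 55, control animals 42, 49, 50 and 59, T3 animals 62, 64 and 65, T3+T4 animals 77, 79, 80 and 84). Dsg2, the desmoglein of simple epithelia, was at 298 ± 39.4 CPM after T4 and 319 ± 40.8 CPM in vehicle (SD), and Dsp, desmoplakin, had a log2 fold change of -0.17 ± 0.16 (SE).

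Of 17 known thyroid hormone induced genes 1 passed with edgeR and 3 with DESeq2, 8 had an unadjusted p under 0.05, and the list median was 0.22 on the log2 scale. The 1 was Dio1, which rose after T4 (log2 fold change 1.44 ± 0.32, SE, edgeR adjusted p = 0.041). This call ended without T4 animal 54, 58 or 69 or vehicle animal 37, 38, 55 or 67. Me1, the cytosolic malic enzyme, and Thrsp, a lipogenic regulator, had 1.00 ± 0.36 and 1.41 ± 0.86 and did not pass. The genes of the receptors Thrb and Thra had log2 fold changes of -0.15 ± 0.11 and -0.17 ± 0.06 (SE). Of 16 tested genes of hormone receptors, transport and deiodinases, a separate list, 0 passed in T4 against vehicle with edgeR and 1 with DESeq2, and 4 had an unadjusted p under 0.05. All 5 calls among the list genes (Mgll, E2f4, Dsg1a, Dsg1b and Dio1) also ended with no filter, with the compared groups only, with animals 54 to 85 only and without the libraries with raised acinar or muscle markers. The call of Mgll ended with sex as a term as well, and that of Dsg1b with 1 subtracted from every value. In T3+T4 against T3, 0 of the 159 list genes passed with edgeR and 3 (1.89%) with DESeq2, against 0.0117% and 0.909% of all genes, and 23 (14.5%) had an unadjusted p under 0.05, against 12.7%.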

How the data were processed

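RNA was extracted with TRIzol and sequenced from a stranded mRNA kit, per the labels' protocols. The authors deposited whole-number counts per gene. The lowest value is 1 in every column, so 1 appears to have been added at a step not given in the sources used here. The submitters' processing notes list bcl2fastq, Trimmomatic, BWA (0.7.10), DESeq and the build GRCh38, while the column names state mm10. Positions and exonic lengths came from GENCODE M21, which held 97.5% of the IDs. The counting tool and its use of strand are not given in the sources used here.

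Counts were scaled with TMM, filtered with filterByExpr and fitted with edgeR 4.0.16 (quasi-likelihood, R 4.3.3). The fit held all 31 libraries and 5 group means, and p-values were adjusted after Benjamini and Hochberg over 17057 genes, with a threshold of 0.05. CPM values are after TMM scaling. The 10 genes and the gene lists around them were chosen with earlier results of these data known. The 10 were tested only in T3+T4 against T3, T3 against control and T3+T4 against control. These compare neither T4-only nor vehicle libraries, though the estimate of the spread was shared over all 31. Intervals cover the spread between animals. Named genes besides the 10 were the partner genes of each list (some are not reported here), up to 4 further list genes with the smallest adjusted p among those called in T4 against vehicle or T3+T4 against T3, and the 3 most similar genes for each direction. Similarity was Pearson's r of log2 CPM (prior count 2) among genes averaging at least 5 CPM. Genes without a symbol, Gm numbers, Rik clones, other clone names and pseudogenes were left out. The fit was tested on simulated data. Alternatives were median-of-ratios factors, library total alone, no filter, a mean of at least 5 CPM, the compared groups only, DESeq2 1.42.0, subtraction of 1, sex or log2 library total as a term, animals 54 to 85, libraries without raised acinar or muscle markers, and leaving out each library in turn.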

Additional observations from a re-analysis of the deposited data

Results flagged for a closer look

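Single libraries stood far from the others of their group in 4 of the 50 combinations of gene and group among the 10 genes, and chance alone gives about 1 in 20 such combinations. T4 animal 40 had 161.5 CPM of Tlcd2, with the next T4 library at 113.8 CPM. The same animal had 26.68 CPM of Trim7, with the next at 18.7 CPM, and 45.62 CPM of Sned1, with the next at 29.54 CPM. T3 animal 60 had 36.09 CPM of Trim7, with the next T3 library at 25.48 CPM.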

How the results depend on the processing

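In T3+T4 against T3, T3 against control and T3+T4 against control, 0 of the 10 genes passed under any of 42 alternatives. Among values of the 10 genes in comparisons that use T4-only or vehicle libraries, 12 moved by more than the spread between replicates. All 12 were with animals 54 to 85 only, which leave 2 vehicle and 1 control libraries. In the tested comparisons, moves were not set against that spread. There, Trim7 in T3+T4 against T3 went from 0.69 to 1.13 on the log2 scale without libraries with raised acinar or muscle markers. For T4 against vehicle, that setting leaves out 3 of 8 T4 and 2 of 5 vehicle libraries. Its log2 fold changes of T4 over vehicle moved least for Nt5e (0.818 to 0.824) and most for Dsg1c (-1.54 to -1.26). In T4 against vehicle, the comparison that chose them, the 10 genes past the threshold became 5 to 10 when 1 library was left out (5 without vehicle animal 37 or 55), 7 without a filter, 8 with the compared groups only, 9 with library totals alone or log2 library total as a term, 1 with animals 54 to 85 only and 0 without libraries with raised acinar or muscle markers. Over all genes 70 genes passed, but 14 without vehicle animal 55, 102 without T3 animal 61, 34 without a filter, 25 with the compared groups only, 235 with DESeq2, 8 with animals 54 to 85 only and 1 without libraries with raised acinar or muscle markers. With library totals alone as scaling 58 were higher and 26 lower, against 36 and 34. In T3+T4 against T3, 2 passed, but 155 with DESeq2, 91 with log2 library total as a term, 13 without a filter, 110 without T3+T4 animal 78 and 0 without T3 animal 61. In T3 against control, 36 passed, but 338 with DESeq2, 8 without control animal 49 and 267 without T3 animal 62. In T3+T4 against control, 0 passed with edgeR and 50 with DESeq2. The cause was not tested. The depth limits Trim7 and Dsg1c most, with as few as 22 counts in a library. No paired analysis was possible because no animal number is shared between groups.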
